A study of Mus musculus with 23 samples.

Results

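Carcinomas of mice that could induce a TGF-beta transgene in keratin 5-positive cells were compared with carcinomas of mice that could not. The comparison rests on the 9 arrays labelled as carcinoma, chosen by that label alone, of 23 arrays in the series. Each array carried RNA of 1 bigenic and 1 monogenic tumour in opposite dyes, so each value is a ratio of those 2 tumours. Both genotypes were FVB mice of 7 to 12 weeks with K5rTA, a reverse tetracycline transactivator driven by the keratin 5 promoter. The bigenic mice also carried tetOTGFbeta, a TGF-beta transgene that the transactivator switches on with doxycycline, and the labels do not name its isoform. All mice received 100 ug of the carcinogen DMBA in 200 ul of acetone, and from 1 week later 5 ug of the tumour promoter TPA 2 times a week for 20 weeks. Squamous cell carcinomas were taken between weeks 25 and 35, and their stage was checked on stained sections. Before harvest the monogenic controls ate the same doxycycline chow, 1 g per kg for 48 h, as the bigenic mice. By this design any induction is short, begins in established tumours and is limited to cells in which the keratin 5 promoter is active.

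TGF-beta is a secreted growth factor that binds a pair of receptor kinases and signals through Smad transcription factors. In keratinocytes it is known as a growth inhibitor, and in fibroblasts as an inducer of collagen and other matrix proteins. In skin carcinogenesis it is known both to hold back early growth and to favour the spread of late tumours. The AP-1 factors, which TPA activates, bind a short element that also lies in many keratin genes.

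The 9 arrays held 5 bigenic and 4 monogenic tumours in 7 pairs. Tumour 1687 was paired with 221 on array 1. Tumours 170 and 1684A were both paired with 242, on arrays 2 and 3. Tumours 236 and 237 were each paired with 241A and 257A. These last 4 pairs took 6 arrays, since 236 with 257A was hybridised on arrays 5 and 9 and 237 with 241A on arrays 6 and 7, each time with the dyes exchanged. The bigenic tumour was in Cy3 on 7 arrays and in Cy5 on arrays 7 and 9. The 7 pairs fall into 3 linked groups that share no tumour. The ranges of experiment numbers in the labels follow the same groups, so the linked group and that range cannot be told apart. The labels do not say whether the tumours came from separate animals, and the p-values rest on how far tumour pairs differ among themselves.

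An array gave values for 7435 to 9248 of 9596 probes. Array 1 had the most missing values, 22.5%, and the widest spread, with a standard deviation of 0.99 on the log2 scale against 0.48 to 0.88 on the other arrays. Array 4 had the widest interquartile range, 1.27, against 0.59 to 0.91 elsewhere. Both arrays stand apart, so results are also given without them. Ratios carry no level for either tumour, so the label of squamous carcinoma could not be checked against keratinocyte markers. In bulk RNA, fewer cells of a type and less RNA per cell cannot be told apart.

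Nothing in the sources says which dye the deposited ratios divide by which. Ratios of the 7 arrays with the bigenic tumour in Cy3 were turned in sign, so that all 9 run one way. A positive value then stands for more RNA in the bigenic tumour where Cy5 was divided by Cy3, and for less RNA there in the reverse case. The text gives the positive or negative side and draws no direction of change from it. The log base is not stated either and was taken as 2, so a difference of 1 would be 2-fold.

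The same extracts with exchanged dyes agreed poorly over all probes, and better in side for probes with wide ratios on both arrays. Pearson's r across probes was 0.21 between arrays 5 and 9 and 0.12 between arrays 6 and 7. Of 8394 probes measured on arrays 5 and 9, 54.5% lay on the same side on both, and of 8632 on arrays 6 and 7, 46.6% did. Among probes with ratios of at least 2-fold on both arrays, 79 of 81 lay on the same side for 236 with 257A and 87 of 102 for 237 with 241A. At 4-fold all 15 and all 10 did. Small ratios on these arrays thus kept their side in about as many probes as not, while large ones kept it.

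**Figure D1:**
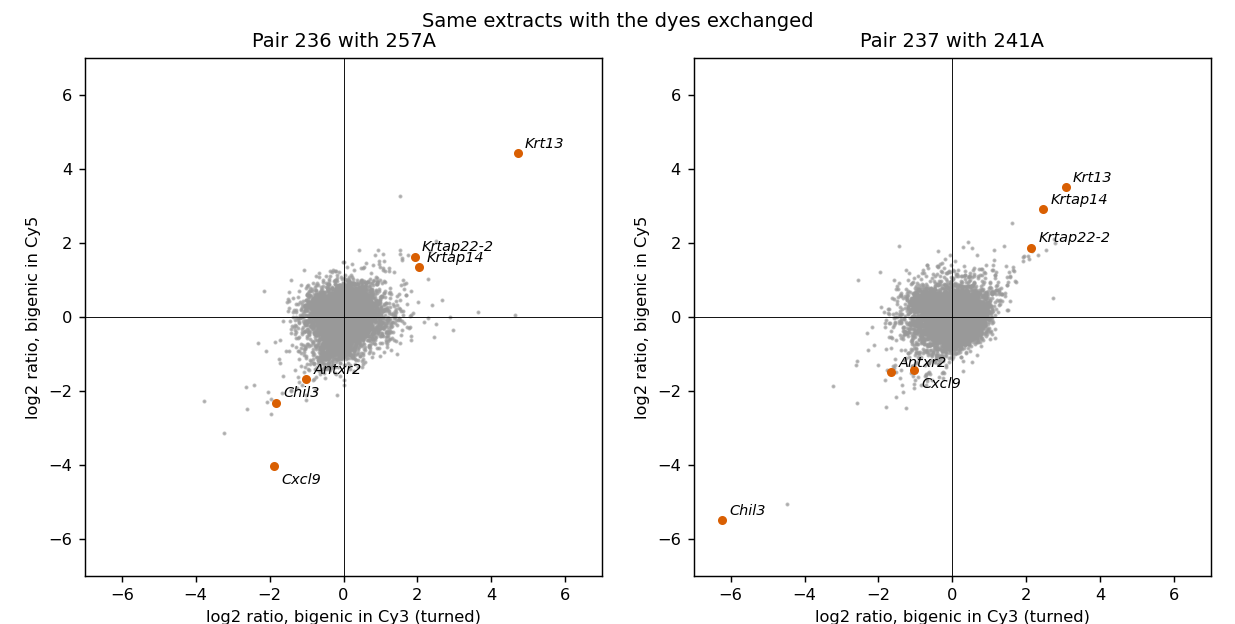
Each point is a gene, with its turned log2 ratio on the array with the bigenic tumour in Cy3 (x axis) against the array of the same extracts with the bigenic tumour in Cy5 (y axis), for 236 with 257A on the left and 237 with 241A on the right. Most genes form a cloud about 0, and the 6 genes at least 2-fold to one side on all 4 arrays are named.

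Dye orientation also moved with the likeness of arrays of different tumours. Array 4 correlated at -0.45 with array 9, although both held bigenic tumour 236. Over the 17 array pairs with no shared tumour and the same dye orientation, the mean r was 0.12, with a range from -0.14 to 0.50. Over the 8 with no shared tumour and opposite orientation it was -0.12, from -0.39 to 0.17. The highest r was 0.55, between arrays 2 and 3, which share the monogenic tumour 242 and the orientation. Arrays that share a dye orientation, a probe set and in part a tumour are not independent, so these correlations across probes are a description.

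**Figure D2:**
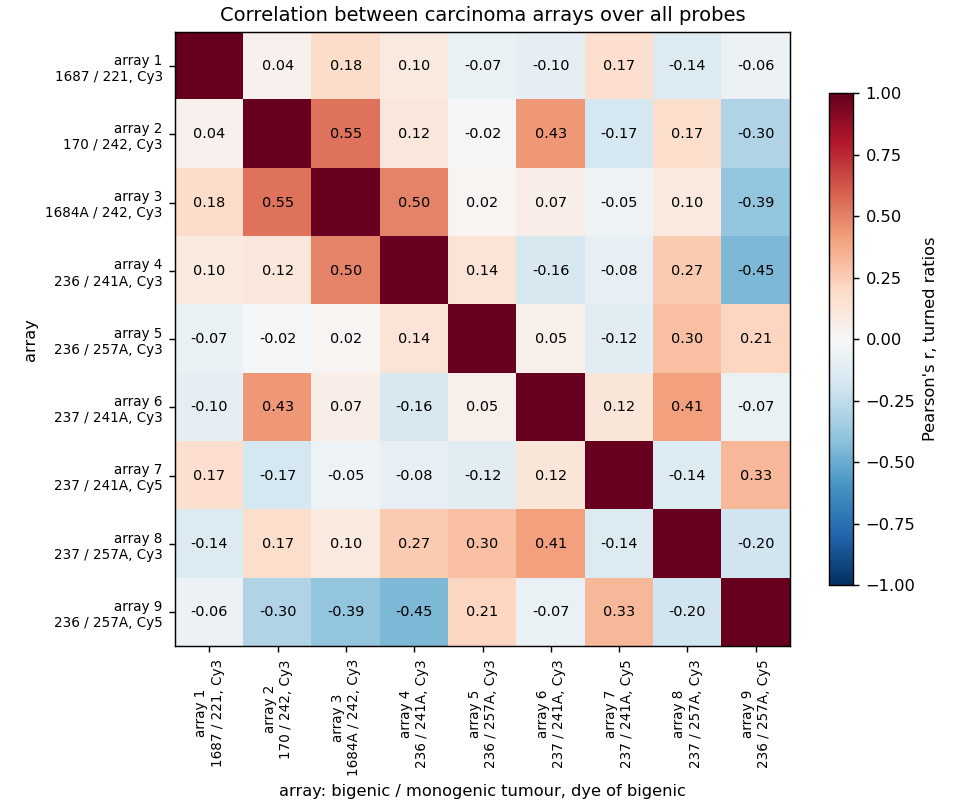
Pearson's r across probes between the 9 carcinoma arrays after the dye turn, on a colour scale from -1 to 1. Arrays 2 and 3 stand at 0.55, and array 9 runs against arrays 2, 3 and 4 at -0.30, -0.39 and -0.45.

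The 4 pairs of 236 and 237 with 241A and 257A form a square that allows a check within the arrays. The difference between 257A and 241A can be read through tumour 236 or through 237. The 2 readings correlated at -0.30 over 8606 probes, where readings of 1 difference without error would correlate at 1. The difference between 236 and 237, read through each monogenic tumour, gave -0.23. Array 4, with the widest interquartile range, enters 1 of the 2 readings of each difference, the one through 236 and the one through 241A. The pairs 236 with 241A and 237 with 257A had the bigenic tumour in Cy3 only. The pairs 236 with 257A and 237 with 241A average both orientations. A dye effect of a gene would therefore enter the 2 readings of a difference with opposite sign and lower their r. Its part, and that of array 4, was not tested.

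Of 6482 genes measured in at least 5 of 7 pairs, 0 (0%) passed an adjusted p of 0.05 in the limma model with Benjamini-Hochberg adjustment. At an unadjusted p under 0.05, 211 genes (3.26%) lay on the positive side and 292 (4.5%) on the negative, 503 in all. The same side in every measured pair was seen for 101 genes on the positive side (1.56%) and 128 on the negative (1.97%). A pair hybridised in both orientations counts here by its mean, so 1 of its arrays may lie on the other side. Over all genes 3190 means were positive and 3292 negative, with a median of -0.01. The genes below are therefore named by their rank, not by a passed test. An alternative went beyond the carcinoma arrays and put the papilloma arrays in the same model, with 1 shared estimate of the spread. There 6 genes passed: Chil3, Nat8l, Prss35, Gtf2e2, Mmp11 and Hbegf. Their p-values rest in part on how far papilloma pairs differ, so they are not a result of the carcinoma arrays alone.

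**Figure D3:**
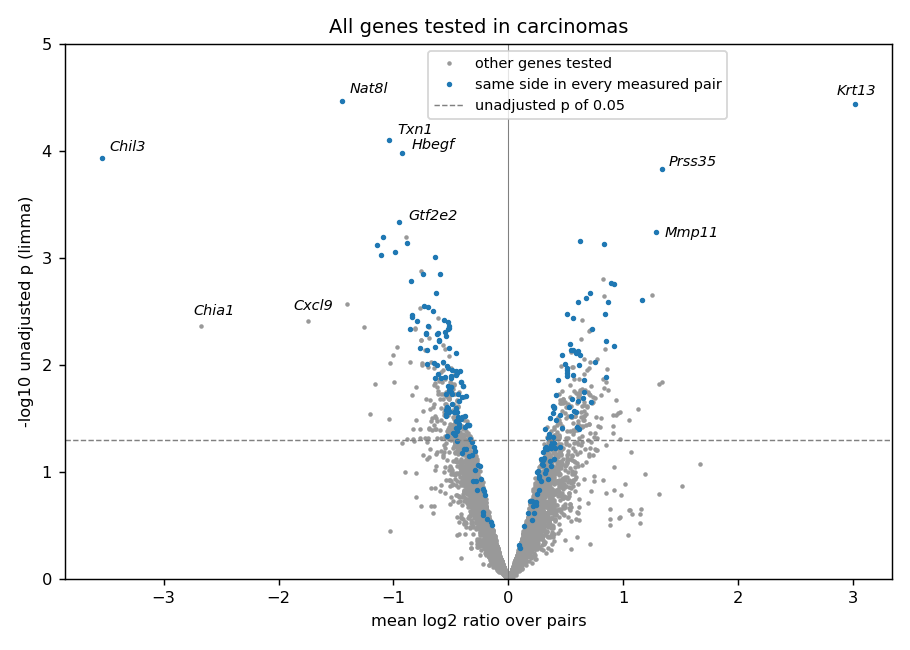
Mean log2 ratio over the pairs (x axis) against -log10 of the unadjusted limma p (y axis) for the 6482 genes tested, with genes on the same side in every measured pair in blue. Krt13 at 3.01 and Chil3 at -3.53 lie farthest out, and none of the genes passed the adjusted threshold of 0.05.

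The widest mean ratio on the positive side belonged to Krt13, the keratin of non-cornified stratified epithelia such as the mouth and oesophagus, whose appearance in skin tumours is a known mark of progression. Krt13 read 1.69 on array 2, 0.17 on array 3, 2.91 on array 4 and 4.72, 3.08, 3.51, 3.61 and 4.43 on arrays 5 to 9. It was not measured on array 1. All 8 arrays were on the positive side, with the pairs of tumours 236 and 237 farthest out and 1684A with 242 close to 0. The mean was 3.01 ± 0.45 (SE, 6 pairs), with an adjusted limma p of 0.118. The mean over the pairs of 236 and 237 was 3.60, against 0.93 over the pairs with 242. Without arrays 1 and 4 the mean was 3.03. Without tumour 1684A (array 3) it was 3.42 with an adjusted limma p of 0.00885, and without tumour 242 it was 3.71 with an adjusted limma p of 0.00214. Array 3 and tumour 242 thus decide whether Krt13 passes.

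Prss35, a secreted protein of the serine protease family, came next. It read 2.79, 0.75, 0.84, 1.70, 1.66, 1.26, 1.08 and 0.59 on arrays 2 to 9 in that order. Every array was positive, and the pair of 170 with 242 stood above the other 5. The mean was 1.33 ± 0.23 (SE, 6 pairs; adjusted limma p 0.16), and 1.41 without arrays 1 and 4. Mmp11, stromelysin-3, which stromal fibroblasts of carcinomas make, read 2.52, 1.72, 1.40, 2.28, 0.72, -0.13, 0.74 and 1.02 on arrays 2 to 9. All 6 pairs were positive after averaging, though array 7 itself was just below 0. Its mean was 1.28 ± 0.27 (SE; adjusted limma p 0.35).

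On the negative side Nat8l, the enzyme that makes N-acetylaspartate, had the smallest p of all genes. It read -1.54, -1.64, -2.19, -0.72, -1.53, -2.15, -1.03 and -0.76 on arrays 2 to 9. No array came near 0, and both arrays of 236 with 257A gave the ratios closest to it. The mean was -1.45 ± 0.21 (SE, 6 pairs), with an adjusted limma p of 0.118. Nat8l kept a mean of -1.34 without arrays 1 and 4.

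Txn1, the cytosolic thioredoxin that reduces protein disulfides, was measured on all 9 arrays. It read -1.01, -1.49, -0.99, -1.62, -0.62, -0.83, -1.83, -0.56 and -0.41. All 7 pairs and both dye orientations were negative, with a mean of -1.04 ± 0.18 (SE; adjusted limma p 0.15). Without arrays 1 and 4 its mean was -0.96. Hbegf, a ligand of the EGF receptor and a known autocrine growth factor of keratinocytes, read -0.65, -0.996, -0.86, -0.81, -1.001, -1.03, -1.94, -0.50 and -0.52. It too was negative on all 9 arrays, with a mean of -0.92 ± 0.16 (SE; adjusted limma p 0.15). Gtf2e2, the beta subunit of the general transcription factor TFIIE, read -0.82, -0.82, -1.31, -2.06, -1.43, -0.56, 0.01, -1.11 and -0.43. All 7 pairs were negative, and array 7 alone reached 0. Its mean was -0.95 ± 0.20 (SE; adjusted limma p 0.35), and -0.81 without arrays 1 and 4.

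Chil3, also known as Ym1, a chitinase-like protein of alternatively activated macrophages, had the widest mean ratio over the pairs of any tested gene. It read -2.20, -3.30, -5.87, -1.83, -6.24, -5.51, -1.01 and -2.32 on arrays 2 to 9. The ratio followed the monogenic tumour: it was near -5.87 in both pairs with 241A, -2.07 and -1.01 in the pairs with 257A, and -2.20 and -3.30 with 242. The mean was -3.53 ± 0.60 (SE, 6 pairs; adjusted limma p 0.15), -3.20 without arrays 1 and 4, and -4.62 without tumour 257A, with an adjusted limma p of 0.0265. Leaving out 257A takes away the pairs closest to 0. Chia1, the acidic mammalian chitinase, gave 0.69 in the pair of 1687, -3.76 and -4.27 with 242, -6.66 and -4.77 with 241A, and 0.05 and -0.63 with 257A. Like Chil3 it was farthest out with 241A, but its pairs lay on both sides, 5 of 7 negative, with a mean of -2.68 ± 0.76 (SE; adjusted limma p 0.508). The other 11 tested genes of the list of alternatively activated macrophages had unadjusted p-values of 0.05 or more. Of these, Retnla had a mean of -0.02 ± 0.31 and Mrc1, the mannose receptor, -0.48 ± 0.34.

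The other 9 of the 12 genes of smallest p on the positive side had smaller means. Adamts12, a secreted metalloprotease, ranged over the pairs from 0.35 to 0.80 with a median of 0.59, the narrowest band of the 12. Its single arrays were farther apart, at 0.08 and 1.52 on arrays 6 and 7, which held the same extracts. Thbs2, a matricellular glycoprotein that inhibits angiogenesis, ran from 0.10 through 1.02 to 2.03. Igf1, insulin-like growth factor 1, ran from 0.19 through 0.85 to 1.98 in 6 pairs. These were positive in every measured pair, as were Itih4 (mean 0.83), Trp53inp1 (0.71, in 5 pairs) and Gla (0.67). Single arrays lay on the other side for Thbs2 (-0.435 on array 9), Itih4 (-0.081 on array 5) and Gla (-0.035 on array 9). Gstm2, a glutathione transferase, Lyz2, the lysozyme of macrophages and neutrophils, and Trps1, a GATA-type repressor, had 6 of 7 pairs positive and means of 0.82, 1.25 and 0.83. The adjusted limma p of these 9 genes ran from 0.35 to 0.508.

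On the negative side, Sdc4, a cell surface proteoglycan, ran from -0.90 through -0.74 to -0.28 over the pairs. Its arrays of the same extracts lay farther apart, at -1.38 and -0.16 on arrays 6 and 7 and -0.89 and 0.33 on arrays 5 and 9. Tnfrsf23, a decoy receptor, ran from -1.57 through -0.92 to -0.24, and Fgfbp1, a carrier of fibroblast growth factors, from -2.56 through -1.17 to -0.11. Each was negative in 7 of 7 pairs. Urah and Nppb, the precursor of brain natriuretic peptide, were negative in 6 of 6, with means of -1.09 and -1.15, although Nppb read 0.12 on array 7. Kcnn4, a calcium-activated potassium channel, was negative in 6 of 7 with a mean of -0.89. The adjusted limma p of these genes lay between 0.35 and 0.37.

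Kdm5d, a histone demethylase encoded on the Y chromosome, was also among the 12, with a mean of -0.99 ± 0.22 and 6 of 6 pairs negative. It was measured only on arrays 1, 2, 3, 4, 6 and 8, all with the bigenic tumour in Cy3. Its side and a dye effect can therefore not be told apart. Eif2s3y, likewise Y-linked, read -1.47 on array 1, -1.33 on array 4 and 1.13 on array 9, and was between -0.59 and 0.20 on the others. Xist, the RNA of the inactive X chromosome, read 1.54 on array 1, 0.91 and 1.41 on arrays 6 and 7 and 0.58 on array 9, and ran from -0.63 to -0.02 elsewhere. The labels used here give no sex for a tumour, and its part in the Kdm5d result was not tested.

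**Figure D4:**
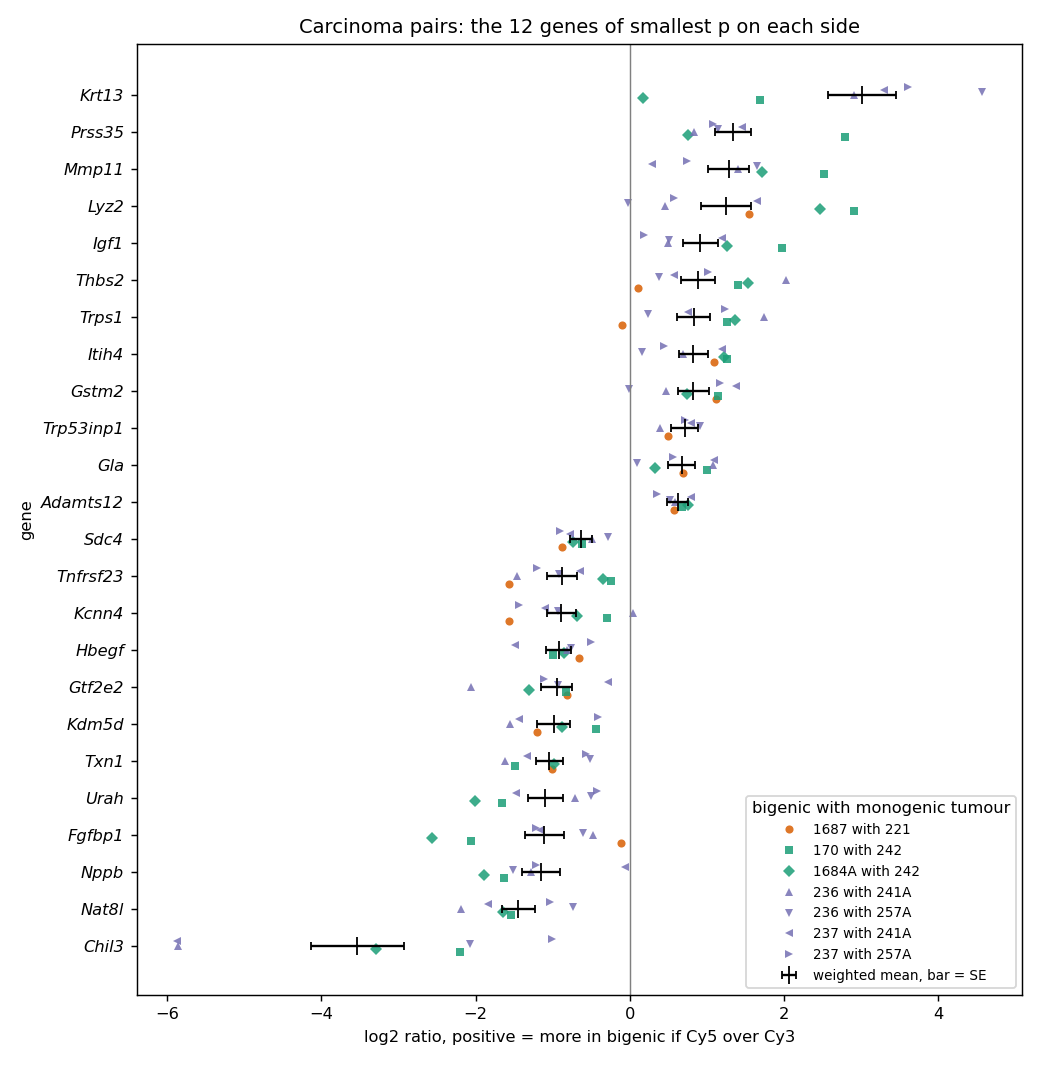
Log2 ratio of each pair (coloured points, 1 colour per linked group) and the weighted mean with its SE (black) for the 12 genes of smallest p on each side. Krt13 spans 0.17 to 4.57 and Chil3 -5.87 to -1.01. The pair values of Adamts12 and Sdc4 keep within narrow bands, although some of their dye-swapped arrays lay farther apart.

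A promoter window was found for 10 of the 12 genes on the positive side and 9 of the 12 on the negative. Windows are from RefSeq on GRCm38.p6 and hold 250 bases before and 50 after each start. They were searched on both strands for TGANTCA, the element that AP-1 binds, and for CAGAC, the core of Smad-binding elements. TGANTCA was in 3 of 11 windows on the positive side (27.3%), both windows of Krt13 and that of Igf1, and in 0 of 10 on the negative. Over all 32851 windows its share was 7.81%. CAGAC was in 5 of 11 and 7 of 10, against 49.6% of all windows. With so few windows the shares only describe these genes. The 250 bases before each start of Krt13, and before those of Prss35 and Txn1, are shown in the direction of the gene as examples of each side, with TGANTCA and CAGAC matches in capitals (CAGAC reads GTCTG on the other strand).
Krt13, chr11:100120578-100120827, minus strand: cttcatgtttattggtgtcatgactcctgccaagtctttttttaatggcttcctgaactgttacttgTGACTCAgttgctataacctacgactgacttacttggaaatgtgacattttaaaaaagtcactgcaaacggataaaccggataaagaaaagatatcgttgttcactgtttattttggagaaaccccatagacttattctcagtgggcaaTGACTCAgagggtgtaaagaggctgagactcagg
Krt13, chr11:100121567-100121816, minus strand: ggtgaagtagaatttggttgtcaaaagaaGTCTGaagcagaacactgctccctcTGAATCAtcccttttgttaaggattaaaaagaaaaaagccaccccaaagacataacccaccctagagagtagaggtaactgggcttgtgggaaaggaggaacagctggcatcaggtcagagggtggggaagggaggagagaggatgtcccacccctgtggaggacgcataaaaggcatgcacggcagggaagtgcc
Prss35, chr9:86743383-86743632, plus strand: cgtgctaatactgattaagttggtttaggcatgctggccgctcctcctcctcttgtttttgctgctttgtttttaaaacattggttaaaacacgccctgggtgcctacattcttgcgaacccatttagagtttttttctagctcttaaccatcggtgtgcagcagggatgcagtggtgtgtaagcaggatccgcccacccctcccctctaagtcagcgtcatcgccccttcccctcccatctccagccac
Txn1, chr4:57956412-57956661, minus strand: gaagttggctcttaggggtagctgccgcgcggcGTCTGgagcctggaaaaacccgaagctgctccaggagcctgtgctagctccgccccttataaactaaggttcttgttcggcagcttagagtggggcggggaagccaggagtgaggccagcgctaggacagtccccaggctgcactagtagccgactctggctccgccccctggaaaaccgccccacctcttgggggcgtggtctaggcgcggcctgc
Of the printed stretches, the first of Krt13 has 2 TGANTCA matches and no CAGAC, and the second has 1 of each. The Prss35 stretch holds neither motif, and the Txn1 stretch holds 1 CAGAC.

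Across the 4 arrays of exchanged dyes, genes that lay far to one side were few. Of 5556 genes measured on all 4, 380 were positive and 462 negative on every one (15.2%). Only Krt13, Krtap14 and Krtap22-2 on the positive side and Chil3, Cxcl9 and Antxr2 on the negative were also at least 2-fold on each of the 4 (0.108%). Krtap14 and Krtap22-2 encode hair keratin-associated proteins. Krtap14 read 0.65 to 2.76 in the 4 pairs of 236 and 237, and -0.76, -1.18 and -0.09 in those of 1687, 170 and 1684A. Krtap22-2 split in the same way, at 1.17 to 3.10 against -1.30, -0.57 and -0.56. The sides of these pairs thus separate by linked group. The family was chosen after its values were seen. Its 6 tested members all had positive means, with a median of 0.74, and Krtap19-9b had all 6 measured pairs positive, with a mean of 1.16 ± 0.30.

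Cxcl9, a chemokine that interferon gamma induces and that draws T cells, also separated by linked group. It read 0.46 and 0.41 on arrays 2 and 3, and -2.97, -1.88, -1.03, -1.44, -3.50 and -4.03 on arrays 4 to 9. Its mean was -1.75 ± 0.48 over 6 pairs (adjusted limma p 0.508). Of 39 tested cytokines, chemokines and receptors 24 were positive and 15 negative, with a median of 0.08. Their side depended on the tumours: 12 were positive in the pairs measured in both orientations, with a median of -0.22, 13 without tumour 242 (-0.11), and 26 of 38 without 257A (0.43). Of 20 interferon-induced genes 11 were positive, with a median of 0.06 that also turned, to -0.13 in the pairs measured in both orientations, and was 0.29 without 257A.

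In the TGF-beta pathway itself the ratios were small. Tgfb1 was measured in only 3 pairs and was not tested. It read -0.15, -0.88, 0.94, -0.17 and 0.39 on arrays 5 to 9. Its sign turned with the dye in both pairs measured both ways, and the pair values were 0.12, 0.03 and -0.17. The probe is not known here to detect the transgene, so these values do not check the labels. Of 26 tested ligands, receptors, Smads and regulators, 14 were positive and 12 negative, with a median of 0.00. At an unadjusted p under 0.05 there were 3 on the positive side and 0 on the negative, where all genes gave 3.26% and 4.5%. Tgfbr2, the type II receptor that binds the ligand, read 0.41, 0.64, 0.86, 0.22, 0.58, 0.52 and 0.29 in the 7 pairs, in the order 1687, 170, 1684A, 236 with 241A, 236 with 257A, 237 with 241A and 237 with 257A. It was positive in all of them, with a mean of 0.51 ± 0.14 (adjusted limma p 0.508). Ltbp1 and Ltbp2, which hold latent TGF-beta in the matrix, had means of 0.63 ± 0.19 with 6 of 7 pairs positive and 0.63 ± 0.25 with 5 of 6. Tgfb2 had a mean of 0.09, Tgfb3 -0.10, Smad2 0.01, Smad3 0.50 in 5 pairs and Smad7, the inhibitory Smad that the pathway induces, 0.05.

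Known TGF-beta target genes lay on both sides. Of 18 tested, 13 were positive and 5 negative, with a median of 0.13. In the model with a dye term 9 were positive and 9 negative (median 0.01), and in the pairs measured in both orientations 8 and 10 (median -0.15), so the list has no settled side. Klf10, an early response gene of TGF-beta, read -0.51, -1.01, -1.31, -0.95, -0.13, -0.67 and -1.29 in the 7 pairs. It was negative in every pair, although array 9 read 0.43, and its mean was -0.74 ± 0.18 (adjusted limma p 0.457). Bhlhe40, a repressor of the circadian system, was negative in 7 of 7 with a mean of -0.77 ± 0.24. It read -0.02 on array 7 and 0.53 on array 9, and its mean with a dye term was -0.40. Cdkn2b, the p15 inhibitor of cyclin D kinases, was positive in 7 of 7 with a mean of 0.51 ± 0.17, although array 7 read -0.07. Lox, which crosslinks collagen, had a mean of 0.62 ± 0.23. Col1a1, Id1, Id2, Junb and Tgfbi had means between -0.16 and 0.19, each with pairs on both sides.

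Genes of the matrix and its cells leaned to the positive side. Of 37 collagens and matrix glycoproteins 30 were positive, with a median of 0.36, against 3190 of 6482 and -0.01 over all genes. At an unadjusted p under 0.05 there were 13 on the positive side and 0 on the negative, against 3.26% and 4.5% of all genes, and 3 were positive in every pair, against 1.56%. Nid1, nidogen of the basement membrane, ran over the pairs from 0.04 through 0.63 to 1.49. Sparc, a collagen-binding matricellular protein, ran from 0.03 through 0.44 to 1.26, and these with Thbs2 are the 3. Col6a1, a chain of type VI collagen, had a mean of 0.64 ± 0.18 with 6 of 7 pairs positive. Mfap5, a microfibril protein, gave 3.72, 2.29, 2.40, 0.81, -0.76, 2.17 and -0.24 in the 7 pairs, and Lum, lumican, 2.40, 1.74, 1.06, 1.43, -0.83, 2.08 and -0.90. Both were negative with 257A and positive with every other monogenic tumour. Without 257A the mean of Lum was 1.80 with an adjusted limma p of 0.0265, and that of Mfap5 2.26 with an adjusted limma p of 0.0308. That setting takes away the pairs with negative values, so these p-values are no separate support. The median of the list showed the same split, at 0.48, 0.82, 0.85, 0.53 and 0.34 in the other pairs and -0.09 and -0.07 with 257A. Without arrays 1 and 4 it was 0.42 with 28 of 36 positive, in the pairs measured in both orientations 0.17 with 25 of 37, and without tumour 242 also 0.17 with 28 of 37. Tumours 242 and 257A thus move the size of the lean, and its side stayed positive in these settings.

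Of 30 matrix proteases and inhibitors 22 were positive, with a median of 0.22. Mmp2, gelatinase A, had a mean of 0.86 ± 0.31 and Adam12 0.74 ± 0.27, each with 5 of 7 pairs positive. Ctsh, cathepsin H, was negative in all 7 pairs with a mean of -0.61 ± 0.18, although array 9 read 0.295. Plau, urokinase, had a mean of -0.64 ± 0.26. The median of this list was 0.05 in the model with a dye term and 0.04 in the pairs measured in both orientations. Of 12 fibroblast markers 9 were positive, with a median of 0.22. This list shares Col6a1, Lum, Mfap5 and other genes with the matrix list, so it is no separate support. Its median was -0.11 in 236 with 257A and -0.27 in 237 with 257A, and from 0.33 to 0.64 in the other pairs. Of 21 genes of mesenchymal transition 15 were positive, with a median of 0.09, but without tumour 242 only 9 were, with a median of -0.03. Tagln, transgelin of contractile cells, had a mean of 0.82 ± 0.28, Cdh11 of 0.51 ± 0.17 and Cdh1, E-cadherin, of -0.54 ± 0.20.

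Markers of other cells differed between the same pairs. Of 19 macrophage markers 17 were positive, with a median of 0.50, and 8 had an unadjusted p under 0.05 on the positive side, where 3.26% of all genes did. Their median was 0.73, 1.70 and 1.19 in the pairs with 221 and 242, and between -0.17 and 0.31 in the other 4. Apoe, the lipid carrier, had a mean of 0.71 ± 0.23, and Tyrobp, an adaptor of myeloid receptors, of 0.81 ± 0.33. Without tumour 242 the median of the macrophage list was 0.19, with 14 of 19 positive. Of 10 neutrophil markers 5 were positive, with medians over the list of 0.70, 1.14 and 1.60 in the pairs with 221 and 242 and between -0.89 and -0.33 in the others. Of 24 skeletal muscle genes 22 were positive, with medians of 2.38, 1.33 and 1.08 in those pairs and 0.27, -0.53, -0.12 and -0.98 in the others. Without arrays 1 and 4, 11 of 24 muscle genes were positive with a median of -0.01, and in the pairs measured in both orientations 1 of 24, with a median of -0.33. These myeloid and muscle markers separate the first 3 pairs from the last 4, and their part in the matrix and protease values was not tested.

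Genes of basal and activated keratinocytes lay on the negative side in 13 of 17 cases, with a median of -0.32, and 4 were negative in every measured pair (1.97% of all genes). The 4 with positive means were Krt13, Krt8, Krt15 and Krt19, all keratins. Cd151, a tetraspanin that binds laminin-receptor integrins, was negative in all 7 pairs with a mean of -0.62 ± 0.20, although array 9 read 0.19. Itgb4, the hemidesmosomal integrin, was negative in 6 of 7, at -0.61 ± 0.21. On arrays 7 and 9, the ones with the bigenic tumour in Cy5, Itgb4 read 0.623 and 0.325, and its mean with a dye term was -0.22. Krt5 had a mean of -0.38 ± 0.15 and Krt6a of -0.33 ± 0.15. Krt15, a keratin of basal and follicle stem cells, was positive in 7 of 7 with a range from 0.00 through 0.65 to 2.14. Krt8, a keratin of simple epithelia, read -2.24, 1.88, 5.51, 2.58, 2.39, -0.67 and -0.52 in the 7 pairs, with a mean of 1.18 ± 0.67 (adjusted limma p 0.698). Its pairs lay on both sides and were farthest apart of these keratins. Krt19 had a mean of 0.12 ± 0.20. Since K5rTA is driven by the promoter of keratin 5, Krt5 also bears on the cells that carry the transactivator. In the pairs measured in both orientations the list's median was -0.08.

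Of 14 suprabasal genes 6 were positive and 8 negative, with a median of -0.16 and 3 of each side at an unadjusted p under 0.05, against 3.26% of all genes on the positive side and 4.5% on the negative. The median was 0.22, with 9 positive, in the pairs measured in both orientations, 0.08 without tumour 242 and -0.43 without 257A. Krt77, Lor, the loricrin of the cornified envelope, and Krt10 had means of 0.77 ± 0.25, 0.62 ± 0.23 and 0.68 ± 0.27. Sprr2a1 and the calprotectin subunits S100a8 and S100a9, which stressed keratinocytes and neutrophils make, had -0.76 ± 0.23, -0.80 ± 0.29 and -0.86 ± 0.28. Cornification genes thus did not share 1 side. Of 18 junction genes 13 were negative, with a median of -0.10. Of 17 measured, 8 were negative in the pairs measured in both orientations (median 0.09) and 8 without tumour 221 (median 0.01), so the lean was lost there.

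Cell cycle genes lay mostly on the negative side by small amounts. Of 36 tested, 34 were negative, with a median of -0.26, and 9 had an unadjusted p under 0.05 on that side, where 4.5% of all genes did. Plk1, a mitotic kinase, read -0.45, -0.98, -0.73, -0.93, -0.51, -0.41 and -0.45 in the 7 pairs. Mki67, the proliferation antigen, read -0.59, -1.57, -1.67, -2.08, -0.42, -0.02 and -0.89. Both were negative in every pair, with means of -0.60 ± 0.14 (adjusted limma p 0.457) and -0.85 ± 0.24 (adjusted limma p 0.508). Mki67 itself read 0.28 on array 7 and -0.03 on array 9, and its mean in the model with a dye term was -0.50. Mad2l1, of the spindle checkpoint, had a mean of -0.82 ± 0.23, Mcm2 of -0.50 ± 0.17 and Cdk1 of -0.43 ± 0.23, while Top2a stood at -0.04 ± 0.21. Ccnd2, cyclin D2, was an exception with 6 of 6 pairs positive and a mean of 0.49 ± 0.16, although array 7 read -0.02. The list median was -0.58, -0.35, -0.52 and -0.54 in the first 4 pairs and -0.19, -0.02 and -0.04 in the last 3. It was -0.18 with 30 of 36 negative without arrays 1 and 4, and -0.13 with 23 of 36 negative in the pairs measured in both orientations.

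Other groups were led by single genes. Of 4 tested genes of the EGF family, Hbegf is given above and Tgfa, a second ligand of the EGF receptor, read -1.27, -0.92, -1.29, -0.35, -1.03, -0.53 and 0.09 in the 7 pairs. It was negative in 6 of 7, with a mean of -0.76 ± 0.18 (adjusted limma p 0.457). Of 34 genes of the oxidative and xenobiotic response 20 were positive and 14 negative, with a median of 0.11, and 17 and 17 in the pairs measured in both orientations. Besides Txn1, Gpx1, a glutathione peroxidase, and Akr1b8, an aldo-keto reductase, had means of -0.70 ± 0.22 and -0.64 ± 0.21. On arrays 7 and 9, the ones with the bigenic tumour in Cy5, Gpx1 read 0.13 and 0.11. Gstm1 and Gstm2, close paralogs that cDNA probes may not tell apart, had 0.86 and 0.82. Of 23 general transcription factors and polymerase II genes 14 were negative, with a median of -0.10. Besides Gtf2e2 the elongation factor Supt5 was negative in all 7 pairs after averaging, at -0.52 ± 0.15. Supt5 itself read 0.444 and 0.067 on arrays 7 and 9, and its mean in the model with a dye term was -0.25.

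Of 15 glycolysis and hypoxia genes 13 were negative, with a median of -0.35. Vegfa, the angiogenic factor that low oxygen induces, read -2.36, -1.68, -2.44, -0.94, -0.60, -0.16 and 0.19 in the 7 pairs. Its ratio was widest in the pairs with 221 and 242, and its mean was -0.97 ± 0.30 (adjusted limma p 0.542). Ndrg1, a hypoxia-induced gene, had a mean of -0.84 ± 0.31 and Slc2a1, the glucose transporter GLUT1, of -0.83. The list median ran from -1.64, -0.80 and -0.59 in the first 3 pairs to 0.41 in 237 with 257A. Without arrays 1 and 4 it was -0.16 with 6 of 15 positive, without tumour 221 it was -0.09, and in the pairs measured in both orientations it was -0.02 with 7 of 15 positive. Ribosomal protein and respiratory chain genes had medians of -0.07 and -0.06, with 0 of 26 and 0 of 35 at an unadjusted p under 0.05 on either side.

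**Figure D5:**
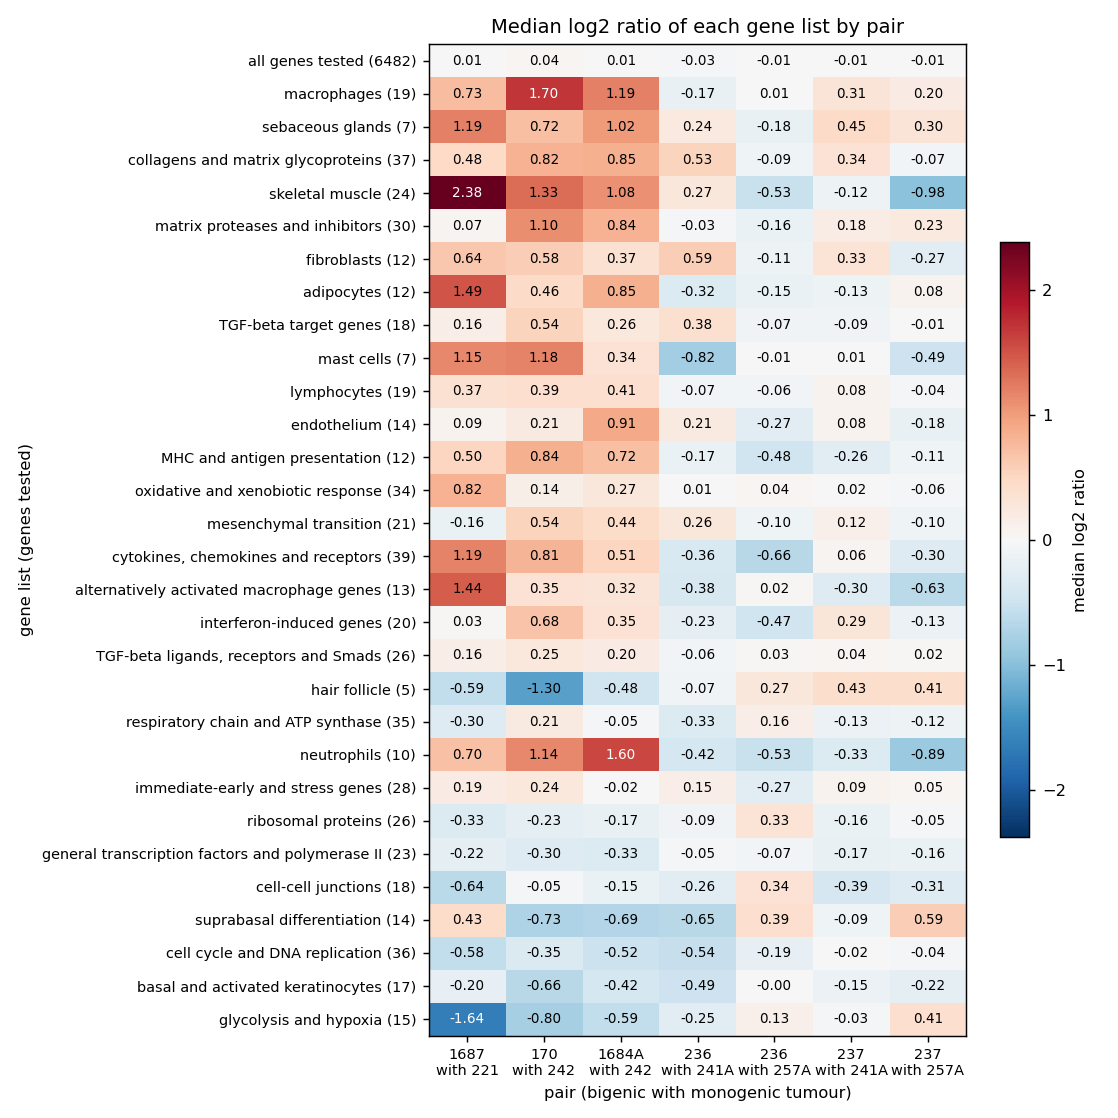
Median log2 ratio of each gene list (rows, with the number of genes tested) in each of the 7 pairs (columns), with all genes tested in the top row. Macrophage, neutrophil and skeletal muscle lists are positive in the first 3 pairs and mostly near or below 0 in the other 4, and the glycolysis and hypoxia list goes from -1.64 to 0.41.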

How the data were processed

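The values were deposited by the authors as 1 signed ratio for each probe of an array, and are treated here as log2. Their numerator, log base, scanner, background correction and way of normalizing were not given in the sources used here. Per the labels' protocols, RNA was isolated with TRIzol and RNeasy and labelled through aminoallyl nucleotides with Cy3 or Cy5. Groups and dyes come from the labels.

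Each array was turned by its dye labels and centred on its median. Of 9596 probes, 7486 had 1 gene symbol and were used, averaged by gene. Dye-swapped arrays were averaged, leaving 7 pairs. Weighted least squares with weights by the number of arrays, moderated by eBayes of limma 3.58.1 in R 4.3.3 with Benjamini-Hochberg adjustment, tested 6482 genes measured in at least 5 pairs. The covariance of pairs sharing a tumour was estimated as 0, so the p-values treat pairs with a tumour in common as independent. The model was tested on simulated data. ± is the SE of the mean. Named are Tgfb1, the 12 genes of smallest p a side (fewer than 5 passed), the 8 largest a side with 7 of 7 pairs alike, up to 4 per list, and further members named after their values were seen. Members and lists were chosen with earlier results of these data known. The closing section gives the alternatives. The number of arrays limits precision.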

Additional observations from a re-analysis of the deposited data

Results flagged for a closer look

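Of the 89 named genes followed, 3 had a pair that stood apart from the rest by Dixon's ratio of gap to range. Chance alone exceeds the limit used in about 1 of 20 groups, so 3 of 89 is no more than that share. Prss35 read 2.79 in the pair of 170 with 242, where the nearest other pair read 1.46. Nppb read -0.067 in 237 with 241A, where the nearest read -1.21. Polr2f, a subunit of RNA polymerases, read 0.39 in 236 with 257A, where the nearest read -0.50.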

How the results depend on the processing

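The count of 0 genes past the adjusted threshold was recomputed under 36 alternatives. It was 6 with the papilloma arrays added and both tumour classes sharing 1 estimate of the spread. These were Chil3 and Nat8l (adjusted limma p 0.00307), Prss35 (0.0044), Gtf2e2 (0.00828), Mmp11 (0.0211) and Hbegf (0.0387). Leaving out 1 array or tumour gave 0 to 6, with 1 (Krt13) without 1684A, on array 3 alone, or without 242, where the unadjusted count was 215, and 6 (Chil3, Pgf, Lum, Nat8l, Mfap5 and Nlrp10) without 257A. The other alternatives gave 0, with unadjusted counts, against 503 as reported, of 265 with a tumour share of 0.5 for pairs that share a tumour, 228 in the model with a dye term, 397 in the pairs measured in both orientations, 492 without arrays 1 and 4, 1115 over Cy3 arrays alone and 1324 with the swapped arrays left unturned. A dye effect passed for 0 of 6362 genes, with 773 at an unadjusted p under 0.05. Each of 89 genes followed was measured under 25 to 36 alternatives, and 87 kept 1 side under all those they were measured in. These genes were picked from the same arrays that the alternatives fit again, so a kept side is no separate support. All 89 kept it even with the swapped arrays left unturned. In the pairs measured in both orientations, an alternative chosen after seeing the data like that without arrays 1 and 4, Il7r turned to -0.27 and Elovl3 to -0.033, and the cause was not tested. No paired analysis was possible because the ratio is taken within each array, and the replicate numbers that carcinomas share with papillomas pair nothing in it.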
